A study of Homo sapiens with 8 samples.

Results

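H460 is an established human line of large cell lung carcinoma with mutated K-Ras, and here its expression was set against that of 3 other lung cancer lines, A549, H1650 and H1975. The 2 arrays of H460, 1 of its side population (H460 SP) and 1 of its main population (H460 MP), were the members, out of 8 arrays in all. They were compared with the SP and MP arrays of A549, which also has mutated K-Ras, and of H1650 and H1975, which have mutated EGFR. SP cells stay dim with a Hoechst dye because they export it, mainly by the transporter ABCG2, while MP cells retain it. All 8 arrays came from living cells that were loaded with this dye and sorted, so none shows an unsorted line. Each value is an Affymetrix MAS5 signal, scaled so that the trimmed mean of each array was 500.1, and the signals were deposited as log2 values. Signals are given below on the linear scale, and differences on the scale of log2(signal + 64), which holds back the large ratios that dim probe sets otherwise give.

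Carcinoma lines keep part of the expression program of the tissue they came from, and each line adds genes that were switched on or silenced in its own history. In epithelial cells E-cadherin and the desmosomes join neighbouring cells, keratins form the intermediate filaments that desmosomes anchor, and laminins tie the cell layer to its basement membrane. Mesenchymal and neural cells use other cadherins, other filaments and other matrix proteins, and carcinomas can express either kind.

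A gene was called higher in H460 where both H460 arrays lay above all 6 others and limma gave an adjusted p under 0.05 against each of the 3 lines, and called lower by the mirror rule. Of 19775 genes, 714 were called higher, which is 3.61% of the genes tested, and 565 were called lower, which is 2.86%. Both H460 arrays lay above all others for 2345 genes (11.9%) and below them for 2828 genes (14.3%), with or without a call. Between the nearest arrays of H460 and of the others the gap was at least 2-fold for 326 genes (1.65%) that were higher and for 271 genes (1.37%) that were lower. The median difference over all genes was -0.05. These p-values measure the spread between the SP array and the MP array within each line, after the SP and MP difference shared by the lines. That spread may be technical or particular to a line, and H460 is a single line. When each line was reduced to 1 mean and the spread was taken between lines, H460 was a single value and limma called 0 genes. Without the SP array of H460, 310 genes were called higher and 229 lower, and without its MP array 296 and 224. The counts were 420 and 306 without A549 SP, 450 and 341 without A549 MP, and 494 and 373 without H1975 MP.

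Side by side, the 2 arrays of H460 were at least as alike as those of any other line. Their values of log2(signal + 64) correlated with r = 0.993 over genes, and the pairs of the other lines with r from 0.989 to 0.992. Between lines, H460 correlated with A549 at 0.918 to 0.921, with H1650 at 0.881 to 0.886 and with H1975 at 0.882 to 0.889, and the other 3 lines correlated with each other at 0.892 to 0.913. Genes are not independent replicates, so these values describe the arrays and carry no test. The line nearest to H460 in mean signal was A549 for 343 of the 714 higher genes and for 278 of the 565 lower genes. The median log2 signal over all probe sets was 5.92 and 5.95 in H460, against 6.04 to 6.29 on the other arrays. Signals under 64 made up 39.9% of the genes on either H460 array, against 35.5% to 37.7% on the others. Scaling all arrays to the same median changed the calls to 931 higher and 361 lower, so 72.1% of the calls were then higher, against 55.8% with the signals as deposited.

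**Figure D1:**
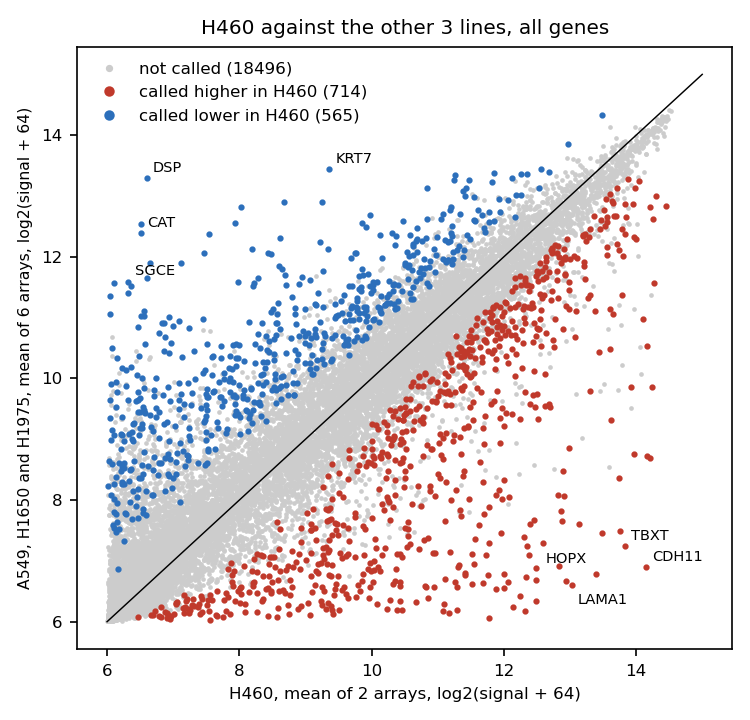
Each point is 1 of 19775 genes, with the mean log2(signal + 64) of the 2 H460 arrays on the x axis and that of the 6 arrays of A549, H1650 and H1975 on the y axis. The 714 red points below the line were called higher in H460 and the 565 blue points above it lower, and TBXT, LAMA1, HOPX and CDH11 lie near the lower right corner.

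Some of the genes that set H460 apart were near the bottom of the scale in one group and bright in the other. Of the genes called higher, 41 had signals over 500 on both H460 arrays and under 64 on all 6 others. In the other direction, 15 genes had signals under 64 on both H460 arrays and over 500 on all 6 others. Promoters of 2 genes of the first kind, or close to it, and 2 of the second are shown for their CpG dinucleotides, which are in capitals. Many CpG-rich promoters belong to widely used genes, and DNA methylation can silence them. CpG-poor promoters are more often those of tissue-restricted genes, but neither holds for every gene. The sequences are from RefSeq (GRCh38.p14), 250 bases before to 50 bases after the start, written 5′ to 3′ on the strand of the gene. They lie at chr6:166168606-166168905 (TBXT, minus strand), chr1:68449905-68450204 (RPE65, minus strand), chr6:7541421-7541720 (DSP, plus strand) and chr11:34438684-34438983 (CAT, plus strand).
TBXT: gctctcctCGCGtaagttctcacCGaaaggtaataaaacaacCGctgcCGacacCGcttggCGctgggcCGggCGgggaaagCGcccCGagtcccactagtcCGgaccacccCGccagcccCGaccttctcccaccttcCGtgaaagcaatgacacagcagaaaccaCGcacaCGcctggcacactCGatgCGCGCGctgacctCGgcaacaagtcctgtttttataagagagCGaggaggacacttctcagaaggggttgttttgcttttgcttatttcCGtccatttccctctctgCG
RPE65: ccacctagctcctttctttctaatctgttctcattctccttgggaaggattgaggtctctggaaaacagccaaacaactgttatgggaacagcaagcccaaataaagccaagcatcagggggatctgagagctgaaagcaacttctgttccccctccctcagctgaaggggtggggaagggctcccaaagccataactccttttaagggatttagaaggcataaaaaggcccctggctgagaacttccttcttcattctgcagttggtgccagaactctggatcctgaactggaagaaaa
DSP: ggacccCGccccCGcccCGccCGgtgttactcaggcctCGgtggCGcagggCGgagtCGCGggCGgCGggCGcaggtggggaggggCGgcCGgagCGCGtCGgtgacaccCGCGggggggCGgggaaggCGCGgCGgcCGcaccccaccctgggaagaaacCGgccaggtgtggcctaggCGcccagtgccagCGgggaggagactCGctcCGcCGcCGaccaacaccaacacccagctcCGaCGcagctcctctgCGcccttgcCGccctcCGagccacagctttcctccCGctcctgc
CAT: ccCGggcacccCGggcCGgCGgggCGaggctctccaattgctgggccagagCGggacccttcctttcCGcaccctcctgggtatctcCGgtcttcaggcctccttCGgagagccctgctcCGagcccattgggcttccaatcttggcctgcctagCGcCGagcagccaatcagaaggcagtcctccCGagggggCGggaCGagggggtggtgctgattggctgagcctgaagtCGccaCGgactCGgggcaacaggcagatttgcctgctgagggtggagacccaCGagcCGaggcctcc

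TBXT has 25 CpG dinucleotides in this window, RPE65 has 0, DSP has 37 and CAT has 20. Over the 15382 tested genes with a promoter in the table the median was 22. The 34 matched promoters among the 41 genes bright only in H460 had a median of 8, and all 3629 matched genes under 64 on the 6 other arrays had a median of 7. The 12 matched promoters among the 15 genes dim only in H460 had a median of 23, and all 5092 matched genes over 500 on the other arrays had a median of 27. Promoter letters came from the reference, and neither methylation nor the sequence of these lines was measured.

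The gene with the widest gap above the other lines was TBXT, or brachyury, the T-box transcription factor of the early mesoderm and the notochord. Its signal was 14484 in H460 SP and 14396 in H460 MP, against a lowest value of 33.0, a median of 95.5 and a highest of 126 on the other arrays (difference 6.58 ± 0.22 SE, adjusted p = 3.18e-05, limma). No other array came near those of H460. The T-box half-site AGGTGTGA, searched on both strands, was in the promoters of 7 of 568 higher genes (1.23%) and 1 of 445 lower genes (0.225%), against 0.845% of all promoters. These are counts of letters in a short window, with few matches in each group.

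Next came LAMA1, the laminin alpha 1 chain of embryonic basement membranes, with 8109.5 in H460 SP and 8459 in H460 MP, against 16.8 to 54.3 with a median of 33.0 on the others (difference 6.42 ± 0.15 SE, adjusted p = 1.4e-05). HOPX, a homeodomain protein of heart and alveolar type 1 cells that does not bind DNA itself, gave 10704 and 10588 in H460, against 5.65 to 121 with a median of 47.4 elsewhere (difference 6.60 ± 0.15 SE). For CDH11, a cadherin of mesenchymal cells and osteoblasts, the H460 signals were 17425 and 18732, against 11.4 to 294 with a median of 35.0 (difference 7.24 ± 0.35 SE, adjusted p = 0.000214). H460 stood clear of every other array for all of them, and the 3 other probe sets of CDH11 gave gaps of 4.72 to 5.66 in the same direction. The other probe set of LAMA1 was dim, with 87.9 and 49.6 in H460, against 4.47 to 25.6, and was not called. Those of HOPX were at or under 52.3 on every array and were not called. The brightest probe set of CDH11 is of a class that can share sequence with other genes.

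Several of the other leading genes are known from tissues far from the lung. SLITRK4 is a neuronal membrane protein of synapses, and its signals were 4522 and 5580.2 in H460, against 0.88 to 14.3 with a median of 9.96 on the other arrays. RPE65, the retinoid isomerase of the retinal pigment epithelium, had 3600.3 and 3306 in H460, against 0.85 to 6.06 with a median of 1.35. GPR65, a proton-sensing receptor of leukocytes, gave 4649 and 4252 in H460, against 1.31 to 25.5 with a median of 12.9. All 3 genes were thus at the very bottom of the scale on each array outside H460. HPGDS, the prostaglandin D2 synthase of mast cells and T helper cells, had 5221 and 6207 in H460, against 3.98 to 39.2 with a median of 14.4. SH2D2A, an adapter protein of activated T cells, had 11128 and 11757 in H460, against 51.4 to 154 with a median of 128. RTN1, a reticulon of neurons and neuroendocrine cells, had 4795 and 4789 in H460, against 9.07 to 40.2 with a median of 19.6. The leukocyte marker PTPRC was under 64 on all 8 arrays, and the 3 measured leukocyte markers summed to 240.4 and 256 in H460, against 202 to 753 elsewhere. EPB41L3, a membrane skeleton protein studied as a suppressor of lung tumours, had 7693 and 7893 in H460, against 6.42 to 82.5 with a median of 39.0. DPP10-AS1 is an antisense RNA of DPP10, which codes for a subunit of potassium channels, and the pair moved together. The antisense RNA had 3999.8 and 4447 in H460, against 25.8 to 58.7 with a median of 29.6. DPP10 itself had 2279 and 2218 in H460, against 1.18 to 12.4 with a median of 6.18. The 15 genes with the widest gaps above were completed by the long noncoding RNA LINC00824, with 6107 and 6126 in H460, against 67.6 to 131 with a median of 93.9, and by 2 cancer-testis genes.

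Cancer-testis genes are silent in most adult tissues outside the germ line and are often expressed in tumours. MAGEB2 had 4028 and 4068 in H460, against 17.9 to 42.7 with a median of 30.5 on the other arrays (difference 5.46 ± 0.16 SE). MAGEA1 had 5661 and 5691 in H460, against 3.33 to 111 with a median of 25.7 (difference 5.81 ± 0.15 SE). They were the only called members of the list, 2 higher and 0 lower of 31 measured (6.45% and 0%, against 3.61% and 2.86% of all genes), and the median difference of the list was -0.05. MAGEA6 had 110.0 and 184 in H460, against 8.73 to 3212 on the others, with the highest value in A549 MP. Genes of this family are near-identical copies, so a probe set can read more than 1 of them.

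**Figure D2:**
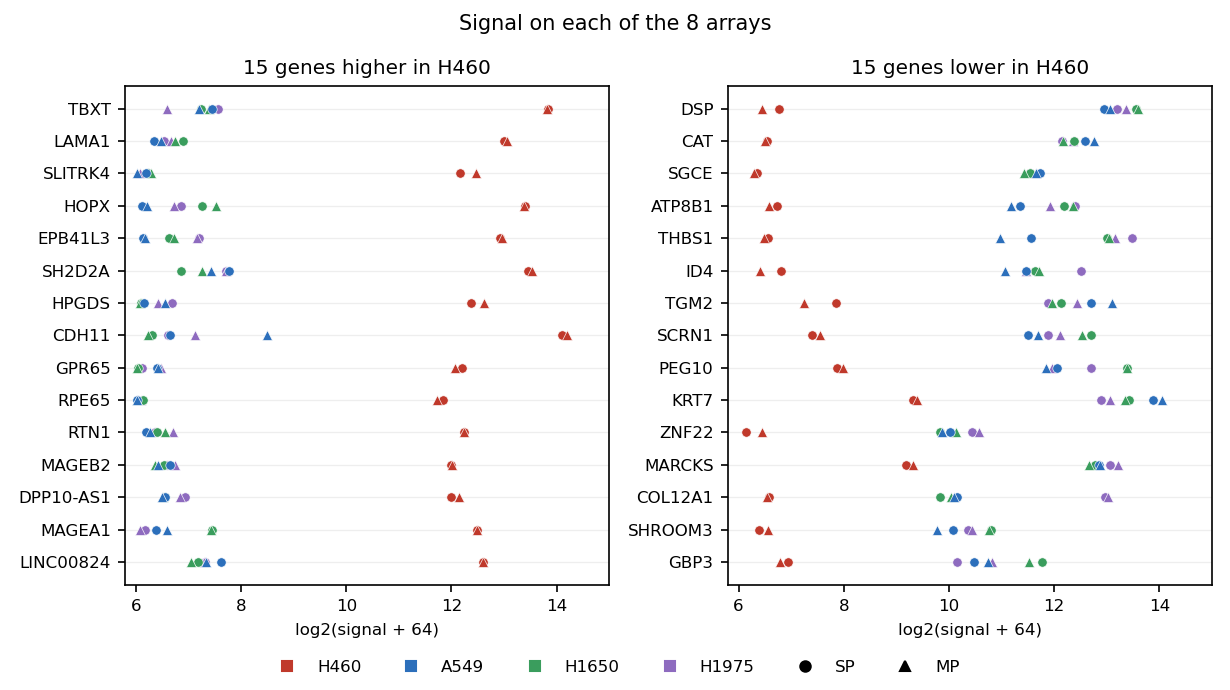
Each row is a gene and each point 1 array, on the scale of log2(signal + 64), with H460 in red, the other lines in blue, green and purple, circles for SP and triangles for MP. On the left the red points of the 15 genes with the widest gap above lie right of all others, and on the right those of the 15 genes with the widest gap below lie left of all others.

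Among the genes lower in H460 the widest gap was that of DSP, desmoplakin, which links keratin filaments to desmosomes. Its signal was 44.2 in H460 SP and 23.0 in H460 MP, against a lowest value of 7791, a median of 9893 and a highest of 12360.0 on the other arrays (difference -6.69 ± 0.11 SE, adjusted p = 6.95e-06, limma). KRT7, a keratin of simple epithelia that is widely used to mark lung adenocarcinoma, had 575 and 607 in H460, against 7519.9 to 16811 with a median of 10602 (difference -4.08 ± 0.08 SE). SHROOM3, which shapes the apical side of epithelial cells through actin, had 19.8 and 30.5 in H460, against 811 to 1716 with a median of 1288. In each case the dimmest of the other lines was still far above H460.

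Other epithelial genes went the same way. Of 42 measured members of the list of epithelial junction and identity genes, 10 were called lower and 0 higher, which is 23.8% lower against 2.86% of all genes, and both H460 arrays lay below all others for 21 of them, 14.3% being the share of all genes. The median difference of the list was -1.72. Without H460 SP or without H460 MP 5 were called lower, and without A549 SP 6. CDH1, or E-cadherin, had 3.06 and 1.54 in H460, against 197 to 13289 with a median of 4644 (difference -5.31 ± 0.13 SE, adjusted p = 0.000369). SPINT2, an inhibitor of membrane serine proteases, had 3.27 and 6.40 in H460, against 288 to 10019 with a median of 8230.3 (difference -5.47 ± 0.11 SE). EPCAM, an epithelial adhesion molecule, had 62.6 and 37.9 in H460, against 411 to 9812 with a median of 1259 (difference -4.08 ± 0.14 SE). For all 3 genes the 2 arrays of H1975 were the nearest to H460 and those of H1650 or A549 the farthest away. The other called members were ELF3, an epithelial transcription factor, the tight junction genes LSR, CGN and MARVELD2, the mucin MUC1 and the desmosomal cadherin DSG2, with differences between -3.14 and -0.74. DSG2 had 3499 and 3734 in H460, against 5087 to 7593, so a desmosomal cadherin remained bright where desmoplakin did not.

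Some members that were not called were dim in several lines or bright in H460. RAB25, a GTPase of apical recycling, had 1.69 and 11.2 in H460, against 3215 and 2938 in H1650 and no more than 6.06 in A549 and H1975. The splicing regulator ESRP1 had 10.3 and 7.63 in H460, against 2090.5 and 1956 in H1650 and no more than 48.6 elsewhere. JUP and DSC2, which code for plakoglobin and a desmosomal cadherin, were brighter in H460 than in H1975. The hexamer CACCTG, an E-box read by SNAI and ZEB repressors, was searched on both strands. It was in 12 of 26 matched promoters of this list (46.2%) and in 4 of the 7 matched called members (57.1%), against 19.6% of all promoters. Over all lower genes its share was 19.3% (86 of 445) and over all higher genes 20.4% (116 of 568). The DSP promoter shown above has 2 copies. ZEB1 itself had 691 and 660.0 in H460, against 19.4 to 3025 on the others, with both A549 and H1975 above H460.

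H460 kept other marks of an epithelial tumour. KRT8 had 11453 and 8773 in H460, against 7512 to 20471 with a median of 12139, KRT18 had 13674 and 12807, against 12872 to 20605 with a median of 15069, and KRT19 had 15091 and 15223, against 3314 to 13850.0 with a median of 4273. None of these keratins was called. Summed over the 5 carcinoma markers EPCAM, KRT8, KRT18, KRT19 and CDH1, the signal was 36843 and 40284 in H460, within the range of 25062 to 63933 of the others. In H460 this sum came almost wholly from the keratins, since EPCAM and CDH1 were called lower and under 64 on both arrays. In bulk RNA, fewer cells that express a gene and less RNA per cell cannot be told apart. The lung adenocarcinoma factor NKX2-1 was under 64 on all 8 arrays, 54.1 and 32.2 in H460 and 11.6 to 40.9 elsewhere, so it was as dim in the other lines as in H460.

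The low epithelial genes were not matched by a general mesenchymal pattern. Of 37 measured mesenchymal genes 3 were higher and 4 lower (8.11% and 10.8%, against 3.61% and 2.86% of all genes), with a median difference of -0.34. Without H460 SP 2 were higher and 2 lower, without H460 MP 1 and 2, and without A549 MP 2 and 2. VIM, the mesenchymal filament vimentin, had 14585 and 13996 in H460, against 729 to 14954 with a median of 12055, and only H1650 was clearly dimmer. CDH2, or N-cadherin, had 28.0 and 37.2 in H460, against 28.9 to 609.6. Both CDH11 and the fibrillar collagens COL3A1 and COL5A2, which are neighbours on chromosome 2, were higher. COL3A1 had 1397 and 1556 in H460, against 15.3 to 406 with a median of 74.4 (difference 3.31 ± 0.27 SE), and COL5A2 had 19477 and 18922, against 91.4 to 10567 with the 2 A549 arrays next. SPARC, COL5A1, LOXL2 and CAV1 were lower. LOXL2, a lysyl oxidase that cross-links collagen, had 215 and 241 in H460, against 2394 to 9847 with a median of 3763 (difference -3.93 ± 0.12 SE). COL5A1 had 17.4 and 31.8 in H460, against 456 to 4484 with a median of 2610.2, although its product pairs with that of COL5A2 in the same collagen. COL12A1, a collagen that sits on fibril surfaces, had 31.0 and 28.6 in H460, against 847 to 8287 with a median of 1056. Among fibroblast markers LUM, the keratan sulfate proteoglycan lumican, had 1236 and 1479 in H460, against 1.08 to 249, and raised the sum of the 4 markers to 1497 and 1721 in H460, against 106 to 874. The fibroblast marker PDGFRB had 77.6 and 75.4 in H460, against 3.35 to 117.

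Basement membrane genes were divided by chain. Of 20 measured laminin and basement membrane genes 5 were higher and 1 lower, 25.0% and 5.00% against 3.61% and 2.86% of all genes, with a median difference of -0.06, which was 0.155 when arrays were scaled to the same median. Without either H460 array or A549 SP 2 were called higher, and without H1650 MP or either H1975 array 3. Beside LAMA1, LAMC1, which codes for the gamma 1 chain that most laminins share, had 11472 and 12640.0 in H460, against 3327 to 5166 with a median of 4857 (gap 1.14, adjusted p = 0.000959). LAMB1, the beta 1 chain, had 8492 and 8589.7 in H460, against 78.8 to 6371 with a median of 5038, and its gap to A549 was only 0.41. The alpha 1, beta 1 and gamma 1 chains make up laminin 111, and all 3 genes were higher in H460. In contrast LAMB3, the beta 3 chain of the laminin of epithelial anchoring filaments, had 181 and 335 in H460, against 1705 to 7791 with a median of 2773 (difference -3.36 ± 0.14 SE). The integrin subunits ITGA2 and ITGA3, whose products bind collagen and laminin, were the 2 lower genes of 22 measured integrins (9.09%, against 2.86% of all genes), and 0 were higher. Without any 1 array of H460, A549 or H1975 only 1 was called lower. ITGA2 had 211 and 231 in H460, against 1313 to 3071 with a median of 1787 (difference -2.78 ± 0.16 SE). THBS1, the matrix protein thrombospondin 1, had 30.2 and 25.2 in H460, against 1951 to 11362 with a median of 8245 (difference -6.02 ± 0.13 SE). TGM2, a transglutaminase that cross-links matrix proteins, had 168 and 86.9 in H460, against 3708 to 8736 with a median of 4935.

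Proteases and their inhibitors moved in both directions, with 6 higher and 4 lower of 48 measured genes (12.5% and 8.33%, against 3.61% and 2.86% of all genes) and a median difference of -0.30. Without either H460 array 2 were called lower. MMP1, interstitial collagenase, had 1303 and 1217 in H460, against 25.1 to 169 with a median of 35.6. ADAMTS1, a secreted metalloprotease that cleaves proteoglycans, had 1697 in H460 SP and 3511 in H460 MP, against 3.48 to 62.4, and was among the few called genes with a 2-fold difference between the H460 arrays. SLPI, an inhibitor of leukocyte elastase made by airway epithelium, had 214 and 182 in H460, against 1515 to 15892 with a median of 8630.0. CTSH, a lysosomal protease that takes part in surfactant protein processing, had 50.8 and 77.0 in H460, against 709 to 6024 with a median of 1304. Both airway-type genes were thus below every other line.

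Neural and neuroendocrine genes were high in part. Of 35 measured, 5 were higher and 1 lower (14.3% and 2.86%, against 3.61% and 2.86% of all genes), and the median difference of the list was -0.01. Without either H460 array 3 were called higher. CHGA, the granule protein chromogranin A, had 515 and 526 in H460, against 5.12 to 78.6 with a median of 50.8 (difference 2.40 ± 0.20 SE, adjusted p = 0.00322). NCAM1, a neural cell adhesion molecule, had 523 and 903 in H460, against 41.5 to 93.2 with a median of 72.9. SCG2, a secretogranin, had 1329 and 1544 in H460, against 28.5 to 433. At the same time the neuroendocrine markers SYP and INSM1 were under 64 on all 8 arrays, so the sum of the 4 measured markers, 1100.0 and 1453 in H460 and 109.5 to 177 on the others, came mainly from CHGA and NCAM1. NEFL, a neurofilament, had 2788 and 2955 in H460, against 6.63 to 883, with A549 MP next. INA, another neuronal filament, had 6.27 and 15.7 in H460, against 162 to 4478 with a median of 1393 (difference -3.94 ± 0.12 SE). The 2 filament genes of neurons thus lay at opposite ends.

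Receptor tyrosine kinases differed member by member, 4 higher and 3 lower of 50 measured kinases and ligands (8% and 6%, against 3.61% and 2.86% of all genes), with a median difference of -0.12. Without either H460 array 2 were higher and 1 lower, and without A549 MP 2 and 2. EPHA4, an ephrin receptor of axon guidance, had 3135 and 3538 in H460, against 28.5 to 172 with a median of 61.7 (difference 4.63 ± 0.17 SE). Its relative EPHA5 had 995 and 1403 in H460, against 3.62 to 62.9 with a median of 11.5, and of its 2 dimmer probe sets 1 was also higher (difference 1.72) and the other gave a difference of -0.081. ROR1, a receptor for WNT5A, had 123 and 132.97 in H460, against 699.8 to 1379 with a median of 994. MET, the receptor for hepatocyte growth factor, had 5578 and 6169 in H460, against 7364 to 9529, a small difference of -0.60 ± 0.09 SE. Of transcription factors that respond to ERK, ETV1 had 3879 and 4190.2 in H460, against 156 to 366 with a median of 286. EGR1 had 752 and 858 in H460, against 2697 to 7108 with a median of 3760.5. These members of 1 pathway list thus moved apart, with 2 higher and 2 lower of 21 measured (9.52% each way, against 3.61% and 2.86% of all genes). Without any 1 array of H460 or A549, or without H1975 SP, 1 was called lower.

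Genes of TGF-beta and BMP signalling were more often low. This pathway runs from ligands through type I and type II receptors to SMAD proteins, and the ID genes are direct targets of its BMP branch. Of 41 measured members 2 were higher and 6 lower (4.88% and 14.6%, against 3.61% and 2.86% of all genes), and the median difference was -0.51. Without H460 SP 1 was higher and 3 lower, and without H460 MP 1 and 4. TGFBR2, the type II receptor, had 794 and 943 in H460, against 1588 to 5824 with a median of 4421 (difference -1.94 ± 0.10 SE). TGFBR1, the type I receptor, had 14260.0 and 14249 in H460, against 2391 to 8282 with a median of 3239 (difference 1.80 ± 0.11 SE). The co-receptor gene TGFBR3 had 252 and 321 in H460, against 1062 to 1643 with a median of 1320.0. The 2 signalling receptors thus differed from the other lines in opposite directions. FST, which codes for follistatin, a secreted inhibitor of activins, had 6436 and 8039.6 in H460, against 102 to 440.3 with a median of 210.0 (difference 4.74 ± 0.17 SE). ID4 had 48.3 and 20.4 in H460, against 2086 to 5799.9 with a median of 2945 (difference -5.04 ± 0.20 SE), and ID3 had 2946 and 1885, against 8042 to 13798 with a median of 9492. ID1 had 2628 and 1330.5 in H460, against 3246 to 11396, and was not called (adjusted p = 0.204).

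Interferon-stimulated genes code for antiviral proteins and are switched on by STAT factors after interferon binds its receptor. In H460 10 of 44 measured genes were lower and 2 higher (22.7% and 4.55%, against 2.86% and 3.61% of all genes), both H460 arrays lay below all others for 21, which held for 14.3% of all genes, and the median difference was -1.18. Without either H460 array 6 were called lower. GBP3, a guanylate-binding protein, had 59.4 and 46.1 in H460, against 1075 to 3429 with a median of 1694 (difference -4.05 ± 0.19 SE). IFITM1, a membrane protein that hinders virus entry, had 281 and 344 in H460, against 1111 to 2381 with a median of 1633. IFI27 had 5.37 and 33.4 in H460, against 192 to 10132 with a median of 7095, and A549 was next to H460 with 192 and 436. A549 was the nearest line for most of the lower genes of this list. When A549 was left out, 25 of the 44 were lower in H460 than in H1650 and H1975, against 7.29% of all genes in that comparison. BST2, or tetherin, was one of those added, with 20.8 and 24.6 in H460 and 60.5 and 93.4 in A549, against 3963 to 4704 in H1650 and H1975. The 2 exceptions were OAS1, an activator of RNase L, with 3999.5 and 4294 in H460, against 166 to 1572 with a median of 739, and the exonuclease gene ISG20, with 3751 and 3785, against 583 to 1015 with a median of 885. The interferon response core, GAAA and again GAAA with any pair of bases between them, searched on both strands, was in 23 of 35 matched promoters of the list (65.7%) and in 7 of the 10 matched called members, against 2.95% of all promoters. It was in 18 of 445 matched promoters of all lower genes (4.04%) and in 10 of 568 of all higher genes (1.76%).

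**Figure D3:**
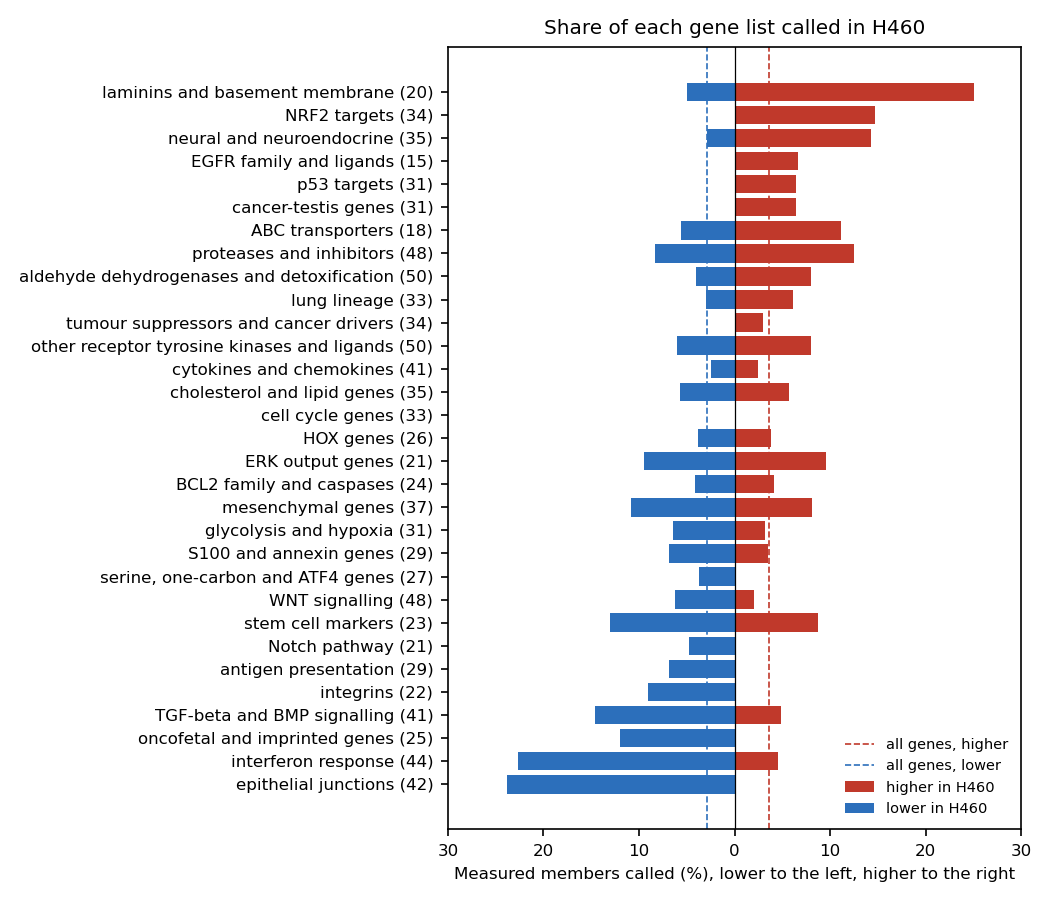
Bars give the percentage of the measured members of each gene list called lower in H460 (blue, to the left) or higher (red, to the right), for lists with at least 15 measured members, whose number stands in brackets, and dashed lines mark 2.86% and 3.61% of all genes. Epithelial junctions with 23.8% and interferon response with 22.7% reach farthest to the left, and laminins and basement membrane with 25.0% farthest to the right.

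NRF2 is the transcription factor that turns on glutathione synthesis, NADPH-producing enzymes and detoxifying reductases under oxidative stress. Of 34 measured targets 5 were higher in H460 than in all 3 lines and 0 lower (14.7% and 0%, against 3.61% and 2.86% of all genes), and the median difference was 1.00. Without H460 SP 2 were called higher, without H460 MP 1, and without A549 MP or either H1975 array 3. CYP4F11, a fatty acid hydroxylase, had 783 and 875 in H460, against 136 and 151 in A549 and no more than 4.78 in H1650 and H1975. PIR, an iron-binding nuclear protein, had 6497 and 7075 in H460, against 689 to 3591 with a median of 1479, and SRXN1, which repairs oxidised peroxiredoxins, had 8179.5 and 7979, against 1769.8 to 5318. Much of this list was shared with A549. Without A549, 26 of the 34 were higher in H460 than in H1650 and H1975, against 7.56% of all genes in that comparison. The aldo-keto reductase gene AKR1C1 had 14511 and 13501 in H460 and 14017 and 15623 in A549, against 138 to 508 in the other lines. For ALDH3A1, an aldehyde dehydrogenase, the signals were 9080.1 and 9322 in H460 and 17249 and 17492 in A549, against 16.6 to 43.0 in the other lines. GPX2, a glutathione peroxidase of epithelia, had 36.8 and 17.03 in H460, and here only A549 was bright, with 13097 and 15075. The antioxidant response core TGACNNNGC, searched on both strands, was in 9 of 25 matched promoters of the list (36.0%), against 14.8% of all promoters. Its share was 15.3% over all higher genes (87 of 568) and 14.8% over all lower genes (66 of 445). AKR1C genes are near-identical copies, so their probe sets can read each other.

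CAT had the second widest gap among the lower genes. It codes for catalase, the peroxisomal enzyme that breaks down hydrogen peroxide, and had 28.8 and 26.1 in H460, against 4466 to 6841 with a median of 5194 (difference -5.88 ± 0.11 SE, adjusted p = 6.95e-06). A second probe set had 4.96 and 5.93 in H460, against 708 to 1437 on the other arrays. Other enzymes of detoxification went both ways, with 4 higher and 2 lower of 50 measured (8% and 4%, against 3.61% and 2.86% of all genes). GSTM1 and GSTM2, neighbouring glutathione transferase genes, had 1923 and 2054, and 1894 and 2175, in H460, against 136 to 525 and 117 to 535 on the others. They are near-identical and their probe sets may read the same RNA. NNMT, a methyltransferase of nicotinamide, had 300.4 and 395 in H460, against 3599 to 13020.0 with a median of 9684. ALDH1A3, a retinaldehyde dehydrogenase, had 38.6 and 47.3 in H460, against 348 to 3767 with a median of 536.

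Of 33 measured cell cycle genes 0 were called in limma, 1 of them (MCM2) had an unadjusted p under 0.05, and the median difference was 0.20. Without H1650 MP, or with the SP and MP labels of H1650 exchanged, 2 were called higher, and without the line H1650 5 were. TOP2A, the DNA topoisomerase of dividing cells, had 4163 and 2272 in H460, against 1046 to 5562 with a median of 3371 (difference 0.19 ± 0.48 SE), AURKB, a mitotic kinase, gave a difference of 0.06 ± 0.41 SE, NCAPH, a condensin subunit, 0.39 ± 0.42 SE and CDK1 1.01 ± 0.33 SE. ABCG2, the transporter that defines the side population, had 6686 and 5216 in H460, above all 6 others at 473 to 4766, but was not called (difference 1.72 ± 0.32 SE, adjusted p = 0.465). It was called higher with the SP and MP labels of H1650 exchanged. In H1650 ABCG2 had 1725 in SP and 2806 in MP, and TOP2A 1445 in SP and 3895 in MP, while in H460, A549 and H1975 the SP array was the brighter one for both genes. By quantitative PCR the study reports TOP2A as raised in SP in all of its lines, H1650 included, with ABCG2 as a positive control for SP. The H1650 arrays differ from that report, and the reason was not tested. CD44, an adhesion receptor used as a stem cell marker, gave a difference of -0.37 ± 0.09 SE and CTNNB1, or beta-catenin, of -0.46 ± 0.08 SE, and neither was called. A dimmer probe set of CD44 was called lower, with 67.9 and 90.2 in H460, against 230 to 1008 (difference -2.08). Its second brightest had 3054 and 3263 in H460, against 4600 to 8102, without a call. The remaining probe sets of CD44 were not called either, and several overlapped the other arrays. Outside this list CDK6, the kinase that opens the G1 phase, had 6946 and 7408 in H460, against 1918 to 3332 with a median of 2394 (difference 1.49 ± 0.09 SE). CCNG1, a p53 target, had 9566 and 9354 in H460, against 2850.5 to 4809 with a median of 4117, and was 1 of 2 higher among 31 measured p53 targets (6.45%, against 3.61% of all genes), with 0 lower. Without any 1 array of H460, A549 or H1975 only 1 of them was called. Stem cell markers had 2 higher and 3 lower of 23 measured (8.70% and 13%, against 3.61% and 2.86% of all genes). Without H460 SP or A549 MP 1 was called higher, and without H1975 SP 4. DCLK1, a kinase that marks tuft cells, had 3198 and 2741 in H460, against 11.5 to 285 with a median of 112. The tetraspanin gene CD9 had 2507 and 2799 in H460, against 5479 to 10738, but a dimmer probe set of it, at or under 63.2 on every array, gave a difference of 0.054. ABCC9, a subunit of potassium channels, had 610.2 and 658 in H460, against 18.3 to 42.2, and of its dimmer probe sets the brightest gave a difference of -0.024 while another gave 2.00.

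Of the remaining genes with the widest gaps below, several code for unrelated functions. ATP8B1, a phospholipid flippase of the bile canaliculus and other apical membranes, had 42.0 and 31.3 in H460, against 2254 to 5346 with a median of 4186. Its other probe set had 471 and 439 in H460, against 463 to 867, and was not called. SCRN1, secernin 1, had 105 and 122 in H460, against 2842 to 6579.7 with a median of 4016. MARCKS, an actin-binding substrate of protein kinase C, had 520.4 and 569 in H460, against 6370.1 to 9418 with a median of 7399. All 4 other probe sets of MARCKS also lay below the other arrays without overlap. ZNF22, a zinc finger protein, had 6.58 and 22.7 in H460, against 849 to 1451 with a median of 1019.6. Over all called genes, other probe sets at or above the median signal were without overlap on the same side in 341 of 467 cases for higher genes and in 407 of 534 cases for lower genes, and on the opposite side in 7 and 4.

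Imprinted genes are read from 1 parental copy only. SGCE, which codes for epsilon-sarcoglycan, and PEG10, a retrotransposon-derived gene, are maternally imprinted neighbours on chromosome 7. SGCE had 17.6 and 14.3 in H460, against 2698 to 3329 with a median of 3045 (difference -5.27 ± 0.10 SE), and PEG10 had 171 and 189, against 3602 to 10593 with a median of 5384 (difference -4.62 ± 0.16 SE). CASD1, the gene next to them, had 405 and 406 in H460, against 629 to 1283 (difference -1.04 ± 0.11 SE, adjusted p = 0.0487). The flanking genes did not follow. COL1A2 had 72.9 and 69.9 in H460, against 5.88 to 594, and PPP1R9A had 300.3 and 297 in H460, against 3.80 to 2027. Of 25 measured oncofetal and imprinted genes 3 were lower and 0 higher (12.0% and 0%, against 2.86% and 3.61% of all genes), with a median difference of -0.32. These 3 were the neighbours SGCE and PEG10, and IGF2BP2, which lies on chromosome 3. IGF2BP2 had 394 and 401 in H460, against 654 to 4437, with A549 nearest.

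CAT closed a longer stretch on chromosome 11. From DEPDC7 to CAT 14 neighbouring genes were tested, and 7 of them were lower in H460, against 2.86% of all genes. Both H460 arrays lay below all others for 10, against 14.3% of all genes. The difference was under 0 for 13, where the median over all genes was itself -0.05. DEPDC7 and CAT are called genes and set the ends of the stretch, which raises these counts. DEPDC7 had 144 and 164 in H460, against 646 to 2068, TCP11L1 had 97.4 and 144, against 678 to 994, and CD59, an inhibitor of the complement attack complex, had 2937 and 2952, against 6798 to 9199.9. CAPRIN1, in the same stretch, had 8900.1 and 8704 in H460, against 6772 to 9281. Both stretches were chosen after their values were seen, and copy number was not measured.

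**Figure D4:**
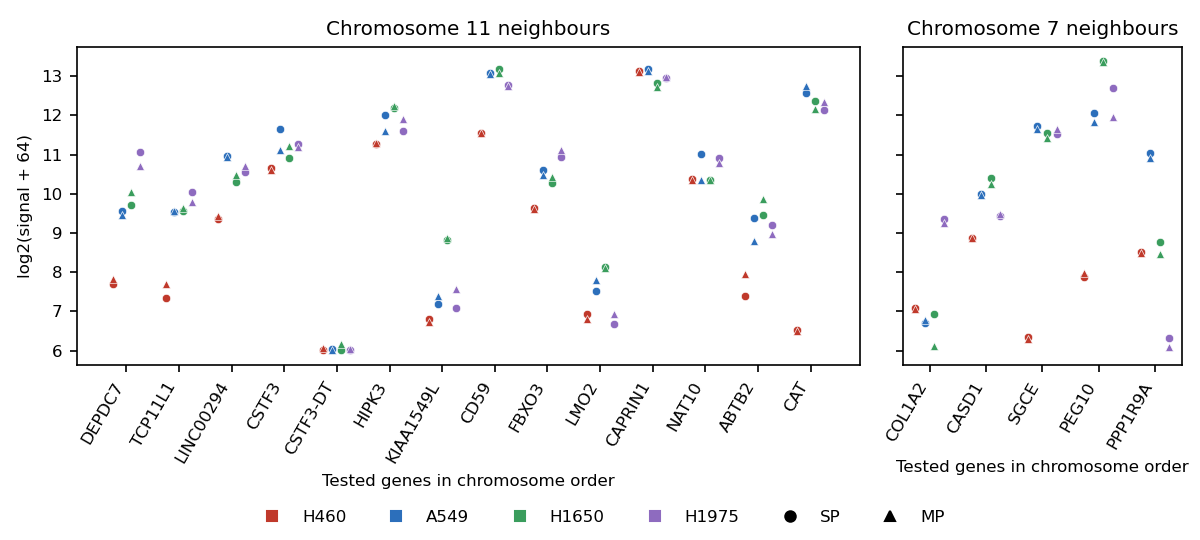
Each point is 1 array on the scale of log2(signal + 64), H460 in red left of the other lines, with tested genes in chromosome order. In the left panel 7 of 14 genes from DEPDC7 to CAT were called lower in H460, against 2.86% of all genes. In the right panel CASD1, SGCE and PEG10 were called lower, with COL1A2 and PPP1R9A beside them.

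Across the genome, called genes were spread unevenly. On chromosome 13, 25 of 401 tested genes were higher and 0 lower. On the X chromosome 48 of 696 were higher (6.90%) and 5 lower (0.718%), and on chromosome 4 6.56% were higher and 1.51% lower. The reverse held on chromosome 19, with 0.682% higher and 3.18% lower, on chromosome 11, with 1.92% and 5.34%, and on chromosome 3, with 1.43% and 4.20%. Set beside 3.61% and 2.86% of all genes, these shares are a description, since neighbouring genes are not independent. Higher genes lay next to each other as 55 pairs and 10 runs of at least 3, and lower genes as 31 pairs and 4 runs. Apart from CASD1, SGCE and PEG10, the runs of lower genes were DEPDC7, TCP11L1 and LINC00294 on chromosome 11, KNOP1, IQCK and GPRC5B on chromosome 16, and SUN2, DNAL4 and NPTXR on chromosome 22. Some pairs are a gene and its antisense RNA, such as DSP and DSP-AS1, whose probe sets may not tell them apart.

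**Figure D5:**
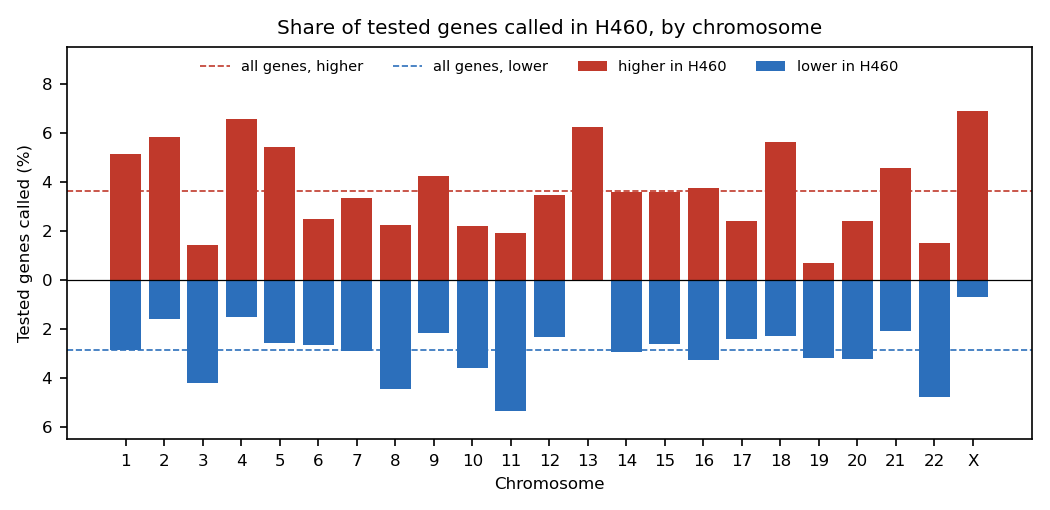
Bars give the percentage of tested genes on each chromosome called higher in H460 (red, upward) or lower (blue, downward), and dashed lines mark 3.61% and 2.86% of all genes. Chromosome 13 has 25 higher genes and 0 lower, and the X chromosome has the tallest red bar at 6.90%.

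Over the 1279 called genes the SP and MP arrays of H460 differed by a median of 0.13 on the log2 scale, against 0.14 over all genes. Of the called genes 6 differed by at least 1, against 105 of all 19775 genes. KCNE4, a subunit of potassium channels, had 7743 in H460 SP and 3556 in H460 MP, against 18.6 to 363 elsewhere. RGS16, a regulator of G protein signalling, had 1132 in H460 SP and 385 in H460 MP, against 46.6 to 113. The others were CBX7, ADAMTS1, PNRC1 and RNF111, and all 6 were named after their values were seen. Tested directly, the difference between SP and MP in H460 differed from that in the other lines at 0 of 19775 genes at an adjusted p under 0.05 in limma, and at 446 genes at an unadjusted p under 0.05, of which 21 were called line genes. The same count was 0 with 713 unadjusted on the log2 signals as deposited, and 0 with 727 when the labels of H1650 were exchanged. H460 has a single pair of arrays, so the spread in this test came from the other lines. Counts of 0 therefore cannot show that SP and MP differed alike in H460 and the others.

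Other lines also had genes of their own at a gap of at least 2-fold. H460 had 326 above and 271 below all others. H1650 had 407 and 178, H1975 had 376 and 200, and A549 had 303 and 86. On the signals as deposited, H460 thus had the most genes below all other lines of the 4. Its number above was within the range of the others. Both H460 arrays had the lowest median signals, and these counts were not repeated with arrays scaled to the same median. That scaling changed the H460 calls from 565 to 361 lower and from 714 to 931 higher.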

How the data were processed

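RNA of sorted SP and MP cells of 4 lines was hybridised to 1 Affymetrix U133 Plus 2.0 array each, as biotin-labelled cRNA. The authors deposited MAS5 signals on the log2 scale, made with GCOS 1.4 according to the submitters' processing notes, with each array scaled to the same trimmed mean. Detection calls and scan dates were not given in the sources used here, so a batch and a line cannot be told apart.

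Of 54675 probe sets, 41097 had 1 gene symbol, 1801 several and 11777 none (62 of all probe sets were controls), and the brightest probe set stood for each of 19775 genes. Log2(signal + 64) was fitted in limma 3.58.1 (R 4.3.3) with terms for line and population. The p-value of a gene was the largest of the 3 contrasts of H460 with each line where the signs agreed, adjusted by Benjamini-Hochberg. Calls needed an adjusted p under 0.05 and no overlap with the 6 other arrays. The fit was tested on simulated data. The number of arrays limits the precision. SP and MP of a line served as its replicates.

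The text names the 15 genes with the widest gap each way, up to 4 called genes per list and 7 genes the study discusses. Other genes, among them those dim in more lines, were chosen after their values were seen. The members and the gene lists were chosen with earlier results of these data known. Promoters and gene names came from RefSeq tables (GRCh38.p14), and promoters were matched for 15382 genes. Alternatives covered the pseudocount, filters, scaling, probe sets, model terms and each array or line left out.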

Additional observations from a re-analysis of the deposited data

How the results depend on the processing

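All counts below are of genes called higher and lower in H460, beside 714 and 565. The SP array and the MP array of each line are not known to be separate cultures, signals near the bottom of the scale have no order, and 4 lines limit any statement on lines. Leaving out 1 array gave 296 to 666 higher and 224 to 541 lower genes. With 1 mean per line both counts were 0, where both the number of samples and the source of the spread changed. A single contrast with the mean of the 3 lines gave 2069 and 2244, every probe set 1274 and 851, an adjusted p under 0.01 gave 403 and 310, and a 2-fold gap with no test 326 and 271. Leaving out the line A549 gave 1495 and 1442, H1650 gave 1130 and 1030, and H1975 gave 1051 and 1013. Scaling to the same median gave 931 and 361, so 72.1% of calls were higher, against 55.8%, and the median difference over all genes was 0.03. Without a pseudocount the counts were 595 and 712, with 45.5% higher. The cause of these shifts was not tested. Under a pseudocount of 16, a filter on the mean signal, quantile normalization, no population term, exchanged H1650 labels and no trend the counts stayed within 1.5 times. Of 65 called named genes with a second probe set, 38 were also called in the same direction by the second brightest one, 24 were not, and EPHA5 (-0.081), ABCC9 (-0.024) and CD9 (0.054) changed sign. TOP2A changed sign without H460 SP (-0.115), H1650 SP (-0.209) or H1975 MP (-0.061). AURKB changed sign without H460 SP (-0.050), A549 MP (-0.017), H1650 SP (-0.271) or H1975 MP (-0.161). Over the arrays left out, TOP2A reached 0.587 and AURKB 0.387, and neither was called. SP and MP were paired across lines by the population term, and without this term the counts were 775 and 633.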
